A study of Mus musculus with 6 samples.

Results

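Pericytes are the mural cells that wrap the endothelial tube of small vessels. Flank and dorsolateral skin from mouse embryos gave 6 droplet libraries of single cells, and 220 of 40653 kept cells met the rule that defined them. The rule took cells with at least 500 genes and at most 10% mitochondrial transcripts that held 3 or more unique molecular identifiers (UMIs, counted transcript molecules) of Rgs5 and 2 or more summed over Kcnj8, Abcc9, Notch3 and Cspg4. It also limited Pecam1 and Cdh5 together to 1 UMI, Krt5 and Krt14 to 3, Myod1 and Myog to 1, and Col2a1 to 5, which keeps out endothelial cells, keratinocytes, muscle and cartilage. The members were thus chosen by the UMI counts of these 12 genes, whose values are given as description only.

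The LOF (loss-of-function) groups had 1 library at embryonic day (E) 14.5 and 1 at E13.5. They carried PDGFRalphaCreER(Lo), a Cre recombinase under control of Pdgfra, a gene of dermal fibroblasts, that tamoxifen activates, together with beta-catfl/fl, the floxed beta-catenin gene Ctnnb1, and mTmG, a reporter that changes from tdTomato to eGFP where Cre has acted. Their dams received 1 dose of tamoxifen at E11.5. The controls, labelled WT, had 2 libraries at E14.5 and 2 at E13.5. Tamoxifen is described in the labels for the LOF mice, so genotype and drug cannot be told apart. All mice were on a CD1 background, each library pooled the skin of 3 to 4 embryos sorted with DAPI, and the chemistry read the 3′ end of transcripts. Libraries held 53461986 to 86446575 UMIs.

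Pericytes and arterial smooth muscle cells belong to the same mural lineage. Endothelial cells recruit them with PDGF-B, which acts on the receptor PDGFRβ, and hold them in place through Notch ligands that signal to NOTCH3. Once settled, pericytes share a basement membrane with the endothelium, release angiopoietin 1 to its receptor Tie2, and adjust vessel diameter with a contractile apparatus that nitric oxide relaxes through soluble guanylate cyclase.

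The members were thinly and unequally spread over the libraries. The E14.5 LOF library held 87 of 8922 cells and the E14.5 controls held 63 of 6263 and 47 of 5850, while the E13.5 LOF library held 17 of 6620 and the E13.5 controls held 5 of 6970 and 1 of 6028. As shares these were 0.975% (exact 95% interval 0.782 to 1.20), 1.01% (0.774 to 1.29) and 0.803% (0.591 to 1.07) at E14.5, and 0.257% (0.150 to 0.411), 0.0717% (0.0233 to 0.167) and 0.0166% (0.00042 to 0.0924) at E13.5, in the same order. All 3 E14.5 shares were above all 3 E13.5 shares, and at E13.5 the LOF share was above both control shares. An exact permutation test of 2 control libraries against 2 cannot give a p below 0.33, so none was run. Endothelial cells, gated on Pecam1 and Cdh5, made up 0.953% of cells in LOF and 1.37% and 0.513% in control libraries at E14.5, and 0.725% in LOF and 0.674% and 0.846% in control libraries at E13.5. Their ranges overlapped between the stages.

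**Figure D1:**
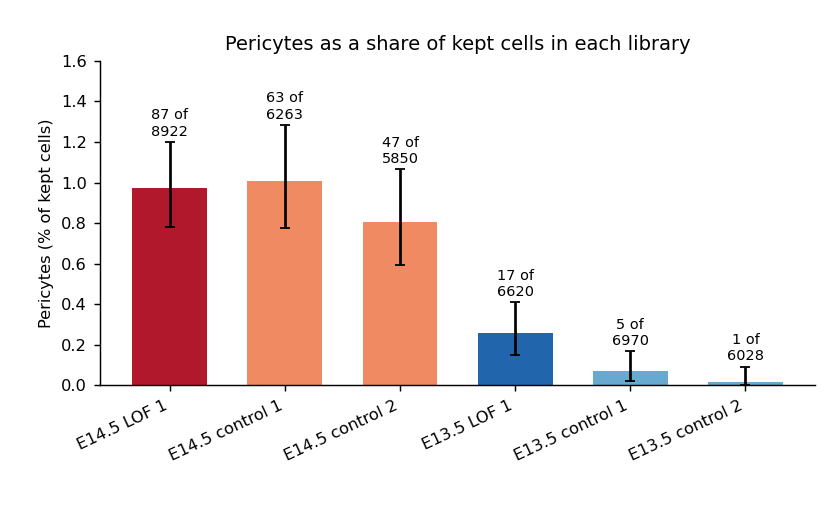
Share of kept cells that met the pericyte rule in each of the 6 libraries (percent, bars with exact binomial 95% intervals, number of cells above each bar). The E14.5 bars lie between 0.803% and 1.01% and the E13.5 bars between 0.0166% and 0.257%.

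The share rests on Rgs5 passing its threshold. Rgs5, a brake on G protein signalling and a widely used pericyte marker, was at 901 CPM (UMIs scaled to a total of 1e+06 per sum) in LOF and 846 and 798 CPM in control pericytes at E14.5, and at 716 CPM in LOF and 313 and 224 CPM in control pericytes at E13.5. Just inside the threshold, 24 members had exactly 3 Rgs5 UMIs and 12 had exactly 2 UMIs of the other markers. Just outside, 58 cells had 1 or 2 Rgs5 UMIs and otherwise met the rule, 17 in LOF and 11 and 9 in control libraries at E14.5 and 11 in LOF and 9 and 1 in control libraries at E13.5. With each cell thinned to 5000 UMIs first, the rule found 44 cells in LOF and 38 and 29 in control libraries at E14.5, and 9 in LOF and 1 and 0 in control libraries at E13.5. The 2 E13.5 control sums therefore hold 6 cells. A single UMI is worth 9.79 CPM in the first of them and 44.8 CPM in the second, so a value of 0 there says little.

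Several features of the libraries bear on what follows. The second control library at each stage, although labelled WT, held eGFP in 24.4% of dermal fibroblasts at E14.5 and 36.8% at E13.5 at a fixed 3000 UMIs per cell, against 1.55% and 0.563% in the first controls. Barcode sequences were shared by 44 to 101 kept cells per pair of libraries. Of the 220 members, 19 scored as doublets (7, 6 and 5 in the E14.5 LOF, first and second control libraries, and 0, 1 and 0 in the same E13.5 libraries). Among all kept cells, members included, 637 of 8922, 314 of 6263 and 274 of 5850 did so at E14.5. In the E13.5 libraries it was 351 of 6620, 389 of 6970 and 291 of 6028, in the same order. The members' median depth was 11594 UMIs in LOF and 15954 and 13163 UMIs in control libraries at E14.5, and 13907 UMIs in LOF and 19469 and 22301 UMIs in control libraries at E13.5.

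Markers outside the rule were read next. Of 24 pericyte genes not used to choose the cells, 17 had their highest mean CPM in the members among 8 gated classes. The share of all genes that were highest in the members was not counted. This count and the later ones of highest genes are therefore description only. The mean also gives the single cell of the second E13.5 control the weight of a whole library. Pdgfrb, the receptor for PDGF-B, was at 288 CPM in LOF and 350 and 315 CPM in control pericytes at E14.5, and at 215 CPM in LOF and 235 and 135 CPM in control pericytes at E13.5. Endothelial cells averaged 11.6 CPM of it and dermal fibroblasts 57.8 CPM, below every pericyte library. Heyl, a Notch target gene, was at 115 CPM in LOF and 130 and 139 CPM in control pericytes at E14.5 and at 142 CPM in LOF and 157 and 135 CPM in control pericytes at E13.5, against a mean of 1.65 CPM in endothelial cells and 2.91 CPM in fibroblasts. Ebf1, a transcription factor of mural and stromal cells, was at 448 to 997 CPM over the 6 libraries, against 148 CPM in endothelial cells and 170 CPM in fibroblasts.

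Other identity genes were uneven. Vtn, which encodes vitronectin, was at 50.3 CPM in LOF and 40.4 and 49.5 CPM in control pericytes at E14.5, and at 3.65 CPM in LOF and 9.79 and 44.8 CPM in control pericytes at E13.5. The last of these is a single UMI, and no Vtn was counted in the endothelial class. Kcnj8 and Abcc9, the pore and regulatory subunits of the vascular ATP-sensitive potassium channel and both part of the rule, lay at 157 to 404 CPM and at 39.2 to 368 CPM. The partner subunits of the pancreatic form of that channel, Kcnj11 and Abcc8, had no UMI in any member. Foxf2, a mural factor of brain vessels, was close to 0.

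Ranked by their level over the next class, with 20 CPM added to both, the genes furthest above all other classes were Cox4i2, Gucy1a3 and Ndufa4l2, at ratios of 25.2, 17.4 and 17.0. Cox4i2 encodes a hypoxia-responsive subunit of cytochrome c oxidase and Ndufa4l2 a related mitochondrial protein. Cox4i2 was at 534 CPM in LOF and 788 and 1539 CPM in control pericytes at E14.5, and at 351 CPM in LOF and 186 and 1659 CPM in control pericytes at E13.5. Both second controls stood far above the other 4 libraries. Ndufa4l2 was at 493 CPM in LOF and 528 and 707 CPM in control pericytes at E14.5, and at 307 CPM in LOF and 176 and 314 CPM in control pericytes at E13.5, so that the E14.5 libraries were all above the E13.5 ones. The edgeR quasi-likelihood test between stages did not call it (adjusted p = 0.412). The rest of the 15 highest were Rasl11a, Ccl11, Actg2, Nab1, Tagln, Myh11, Gucy1b3, Mylk, Rasl12, Itga1, Ebf1 and Rasgrp2, of which Itga1 is a collagen-binding integrin and Ccl11 the chemokine eotaxin. In all 6 libraries 11 of the 15 were above every other class, and Actg2, Tagln, Myh11 and Mylk were so in 5. The ranking used the means of these same libraries, so this count describes the choice.

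**Figure D2:**
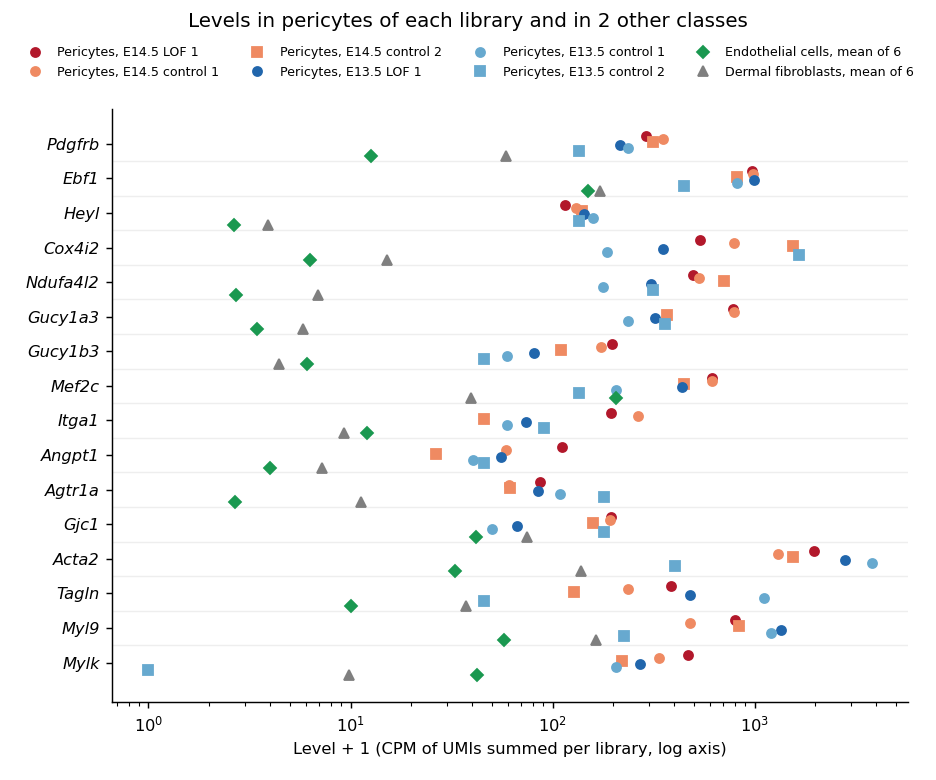
CPM plus 1 on a log axis for 16 genes in the pericytes of each of the 6 libraries, with the mean over 6 libraries of endothelial cells and of dermal fibroblasts. Pdgfrb, Heyl, Gucy1a3 and Cox4i2 lie above both other classes in every library, while Acta2 and Tagln spread widely among the pericyte sums.

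Receptors and enzymes of vascular tone formed a broad group, with 14 of 37 measured genes highest in pericytes and 34 detected in them. Both subunits of soluble guanylate cyclase, the nitric oxide receptor, were among the 15 genes highest over the next class. Gucy1a3 was at 781 CPM in LOF and 787 and 366 CPM in control pericytes at E14.5, and at 321 CPM in LOF and 235 and 359 CPM in control pericytes at E13.5, against 2.44 CPM in endothelial cells and 4.85 CPM in fibroblasts. Gucy1b3 was at 195 CPM in LOF and 173 and 109 CPM in control pericytes at E14.5, and at 80.3 CPM in LOF and 58.7 and 44.8 CPM in control pericytes at E13.5. Agtr1a, the angiotensin II receptor that contracts vessels, was at 59.6 to 179 CPM over the 6 libraries, whereas Agtr2, the other angiotensin receptor, was at 89.7 to 225 CPM in pericytes against 439 CPM in fibroblasts. Ednra, an endothelin receptor, was at 138 CPM in LOF and 75.9 and 52.7 CPM in control pericytes at E14.5, and at 69.4 CPM in LOF and 48.9 and 0 CPM in control pericytes at E13.5. The α2 adrenergic receptor gene Adra2a was at 32.2 CPM in LOF and 72.1 and 59.1 CPM in control pericytes at E14.5, and at 0 CPM in LOF and 9.79 and 0 CPM in control pericytes at E13.5. Its stages did not overlap.

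Signals exchanged with the endothelium were less selective. Of 20 measured Notch pathway genes 4 were highest in pericytes. Jag1, a Notch ligand, was at 86.3 CPM in LOF and 60.5 and 62.3 CPM in control pericytes at E14.5, and at 168 CPM in LOF and 157 and 44.8 CPM in control pericytes at E13.5. Nrarp, a Notch target and feedback inhibitor, was at 78.3 to 201 CPM over the 6 libraries and at a mean of 152 CPM in endothelial cells, a range that holds the endothelial value. Dll4 and Jag2, ligands of endothelial and epithelial cells, had no UMI in any member. Of 9 PDGF genes only the receptor gene Pdgfrb was highest in pericytes. Pdgfb, its ligand, was at 0 to 29.4 CPM in pericytes and averaged 27.5 CPM in endothelial cells. Pdgfra, which drove the Cre, was at 22.8 CPM in LOF and 10.6 and 1.6 CPM in control pericytes at E14.5, and at 3.65 CPM in LOF and 9.79 and 0 CPM in control pericytes at E13.5, against 261 CPM in the fibroblasts gated on it.

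Of 28 angiopoietin, VEGF, ephrin and chemokine genes, 2 were highest in pericytes. Angpt1, the stabilising ligand of Tie2, was at 111 CPM in LOF and 57.6 and 25.6 CPM in control pericytes at E14.5, and at 54.8 CPM in LOF and 39.2 and 44.8 CPM in control pericytes at E13.5, against 3.01 CPM in endothelial cells and 6.21 CPM in fibroblasts. Vegfc, a growth factor for lymphatic endothelium, was at 31.3 to 135 CPM in pericytes and 29.0 CPM in endothelial cells. Of 26 Hox genes none was highest in pericytes, and of 42 mesenchymal and mural transcription factors 12 were. Among those, Mef2c, a muscle and vascular factor, was at 613 CPM in LOF and 611 and 444 CPM in control pericytes at E14.5, and at 438 CPM in LOF and 206 and 135 CPM in control pericytes at E13.5. Twist2, a dermal factor, was at 11 to 75.1 CPM in pericytes and 582 CPM in fibroblasts.

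Of 27 basement membrane genes 5 were highest in pericytes, and of 26 interstitial matrix genes 1 was. Col4a1, a chain of the type IV collagen of vessel basement membranes, was at 989 CPM in LOF and 982 and 259 CPM in control pericytes at E14.5, and at 332 CPM in LOF and 313 and 269 CPM in control pericytes at E13.5. Only the E14.5 LOF and first control libraries were high. Col1a1, fibrillar collagen of the dermis, was at 179 to 773 CPM in pericytes against 2931 CPM in fibroblasts, and Lum, the proteoglycan lumican, at 0 to 168 CPM against 1376 CPM.

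Markers of other cell types were low but not absent. Endothelial markers summed to 78.3 to 166 CPM over the pericyte libraries against 3692 CPM in endothelial cells, with Cldn5 and Tie1 at 0. Fibroblast markers summed to 168 to 730 CPM against 6253 CPM in fibroblasts, keratinocyte markers to 21.9 to 44.8 CPM against 3664 CPM, macrophage markers to 0 to 22.4 CPM against 5141 CPM and Schwann markers to 18.3 to 89.7 CPM against 1146 CPM. Markers of vascular smooth muscle were the exception, with 5 of 6 highest in the members and sums of 2764 CPM in LOF and 1801 and 1837 CPM in control pericytes at E14.5, and 3454 CPM in LOF and 5070 and 448 CPM in control pericytes at E13.5. The rule used none of the smooth muscle genes, so the members include cells that carry smooth muscle transcripts.

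Contractile genes varied widely between libraries and between cells. Of 20 contractile genes 13 were highest in the members and 19 were detected. Acta2, smooth muscle actin, was at 1958 CPM in LOF and 1305 and 1539 CPM in control pericytes at E14.5, and at 2811 CPM in LOF and 3798 and 404 CPM in control pericytes at E13.5. The stages overlapped, since the single cell of the second E13.5 control was the lowest of all. Tagln, the actin-binding protein transgelin, was at 384 CPM in LOF and 236 and 126 CPM in control pericytes at E14.5, and at 478 CPM in LOF and 1116 and 44.8 CPM in control pericytes at E13.5. Myl9, the regulatory myosin light chain, was at 795 CPM in LOF and 479 and 840 CPM in control pericytes at E14.5, and at 1351 CPM in LOF and 1204 and 224 CPM in control pericytes at E13.5. None of the 12 contractile genes that the stage test could take was called by edgeR.

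Promoters of 2 of these genes are shown because their letters hold a motif of RBPJ, the DNA-binding partner of Notch, and one of serum response factor, an activator of smooth muscle genes. The sequences come from RefSeq (build GRCm38.p6) and run from 250 bases before the annotated start to 50 after it, in the direction of transcription. Acta2 is at chr19:34255324-34255623 on the minus strand, with TGGGAA, the core letters of an RBPJ motif, in capitals. Myl9 is at chr2:156775214-156775513 on the plus strand, with a CArG box, the motif of serum response factor, in capitals.
Acta2: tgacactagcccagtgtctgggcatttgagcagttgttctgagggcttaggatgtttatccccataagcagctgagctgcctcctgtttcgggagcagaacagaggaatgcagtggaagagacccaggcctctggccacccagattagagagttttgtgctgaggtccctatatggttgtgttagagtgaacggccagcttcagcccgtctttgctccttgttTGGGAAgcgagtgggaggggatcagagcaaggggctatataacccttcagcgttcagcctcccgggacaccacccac
Myl9: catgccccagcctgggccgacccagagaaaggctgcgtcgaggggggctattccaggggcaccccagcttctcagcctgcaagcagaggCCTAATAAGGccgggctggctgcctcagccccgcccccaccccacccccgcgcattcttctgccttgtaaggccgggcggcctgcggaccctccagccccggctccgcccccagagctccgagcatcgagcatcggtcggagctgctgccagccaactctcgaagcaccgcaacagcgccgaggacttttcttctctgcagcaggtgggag

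TGGGAA was searched on both strands and first matched at base 224 of the Acta2 window. The CArG box, searched as CCWWWWWWGG with W for A or T and no mismatch allowed, began at base 90 of the Myl9 window. The stretches CCCTATATGG and CCTTGTTTGG of the Acta2 window come close to that pattern and were not counted. The latter overlaps the TGGGAA in capitals, so the counts do not show that Acta2 lacks a CArG-like element. Of 32851 mouse promoters of this length 25.6% held TGGGAA and 1.63% held a CArG box, and of the 16 contractile genes with a promoter entry 4 held TGGGAA and 2, Myl9 and Cnn2, a CArG box. Tagln, Myh11, Actg2 and Myocd had no entry. These are matches of letters, and no binding was measured.

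Within a library, Acta2 ran from cells with none to cells with many copies. At 3000 UMIs per cell its median was 2.5 UMIs in the E14.5 LOF cells, 2 in each E14.5 control and 5 in the E13.5 LOF cells, with maxima of 33, 32, 35 and 21 UMIs in that order. The members were therefore divided at 5 Acta2 UMIs into Acta2-high and Acta2-low cells in the 4 libraries with more than 5 members, which gave 33 and 53 cells in E14.5 LOF, 16 and 47 in the first and 12 and 34 in the second E14.5 control, and 10 and 7 in E13.5 LOF. Acta2 made the division and its own difference is not a result. No test was made, because the cells of a library share their source and the division was by an expressed gene.

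Of 18 other contractile genes with a UMI in each of these libraries, 12 were higher in the Acta2-high cells of all 4 and 0 were lower in all 4. Over all 9683 genes so detected the shares were 8.78% and 7.08%. Tagln was at 915 CPM in Acta2-high and 67.9 CPM in Acta2-low cells of E14.5 LOF, at 718 and 106 CPM in the first and 296 and 65.5 CPM in the second E14.5 control, and at 609 and 180 CPM in E13.5 LOF. Myh11, the smooth muscle myosin heavy chain and a late marker of that lineage, was at 591 CPM in Acta2-high and 16.6 CPM in Acta2-low cells of E14.5 LOF, at 415 and 7.32 CPM in the first and 90.6 and 13.1 CPM in the second E14.5 control, and at 78.7 and 12 CPM in E13.5 LOF. Myh11 had no UMI at this depth in 64 of 86, 52 of 63, 44 of 46 and 15 of 17 cells of the same libraries. Myl9, Mylk, the kinase that phosphorylates it, and Tpm1, a tropomyosin, were also higher in the Acta2-high cells of all 4. Des, Cnn1, Smtn, Itga8, Myocd and Sncg had no common direction, and Des was at 129 CPM in Acta2-high and 133 CPM in Acta2-low cells of E14.5 LOF, at 203 and 129 CPM in the first and 90.6 and 135 CPM in the second E14.5 control, and at 99.7 and 48 CPM in E13.5 LOF.

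Of 20 pericyte identity genes with a UMI in each library, 4 were higher in the Acta2-high cells of all 4 (Ednra, Foxs1, Gja4 and Nrip2) and 3 were lower in all 4 (Pdgfrb, Tbx18 and S1pr3). The endothelin receptor gene Ednra was at 226 CPM in Acta2-high and 84.5 CPM in Acta2-low cells of E14.5 LOF, at 99.3 and 69.6 CPM in the first and 66.4 and 48.0 CPM in the second E14.5 control, and at 89.2 and 24 CPM in E13.5 LOF. Jag1 was at 144 CPM in Acta2-high and 48.3 CPM in Acta2-low cells of E14.5 LOF, at 122 and 43.9 CPM in the first and 90.6 and 52.4 CPM in the second E14.5 control, and at 179 and 144 CPM in E13.5 LOF. Both were higher in the Acta2-high cells of every library, and so were Gja4, a gap junction gene of arteries, and Foxs1, a forkhead factor of perivascular cells. Tbx18, a T-box factor of mural cells, ran the other way in all 4, at 18 CPM in Acta2-high and 45.3 CPM in Acta2-low cells of E14.5 LOF. Pdgfrb was at 267 CPM in Acta2-high and 302 CPM in Acta2-low cells of E14.5 LOF, at 325 and 356 CPM in the first and 163 and 365 CPM in the second E14.5 control, and at 210.0 and 228 CPM in E13.5 LOF. Heyl, Ebf1 and Cox4i2 had no common direction, and Rgs5 was higher in the Acta2-high cells of both E14.5 controls and lower in those of both LOF libraries.

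**Figure D3:**
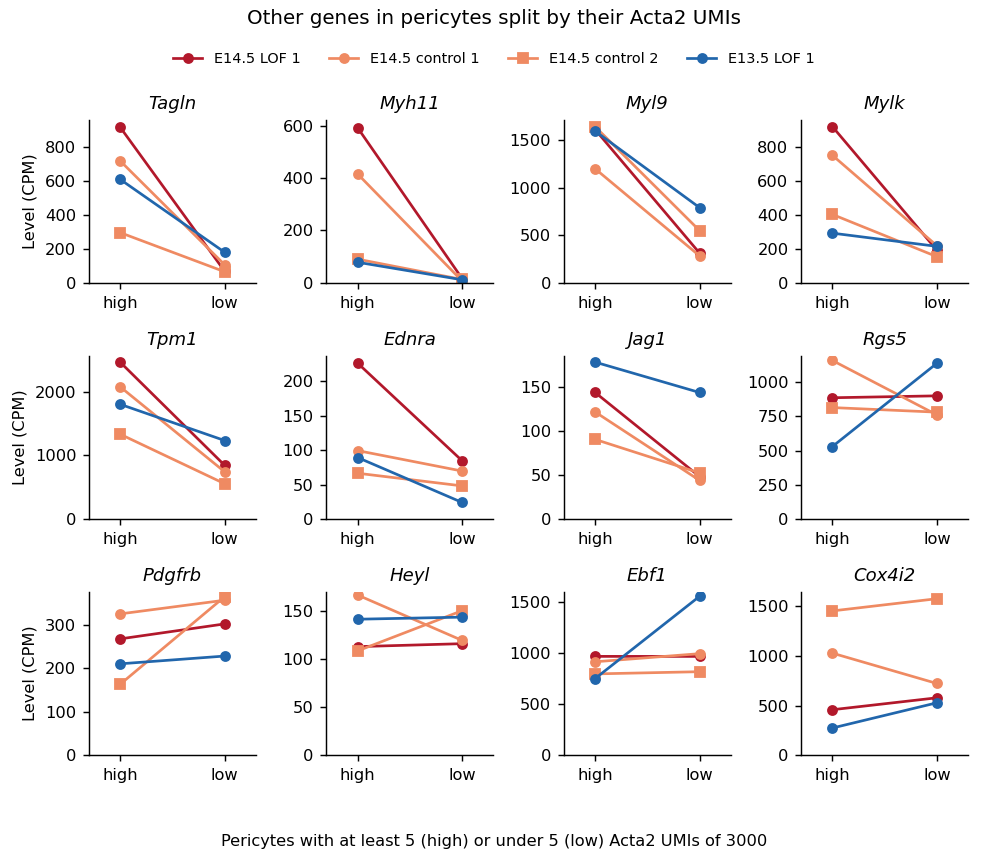
CPM of 12 genes in Acta2-high cells (at least 5 Acta2 UMIs of 3000) and Acta2-low cells of the 4 libraries with more than 5 pericytes. Tagln, Myh11, Myl9, Mylk, Tpm1, Ednra and Jag1 are higher in the Acta2-high cells of all 4 libraries, Pdgfrb is lower in all 4, and Heyl, Ebf1 and Cox4i2 have no common direction.

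The reporter was read as the share of cells with an eGFP UMI at 3000 UMIs per cell. It was 29 of 86 pericytes in E14.5 LOF, or 33.7% (exact 95% interval 23.9 to 44.7), and 1 of 63 and 1 of 46 in the E14.5 controls. It was 7 of 17 pericytes in E13.5 LOF, or 41.2% (18.4 to 67.1), and 0 of 5 and 0 of 1 in the E13.5 controls, where a count of 0 allows a share of cells with a UMI of up to 60.0% in the first and sets no limit in the second. Without thinning the LOF shares were 50.6% at E14.5 and 47.1% at E13.5. Keratinocytes and macrophages, which should not express Pdgfra, give the background, at 2.10% and 3.50% in E14.5 LOF and 4.04% and 5.81% in E13.5 LOF. Pericytes of both LOF libraries were above it, and their median depth was 11594 UMIs in E14.5 LOF against 10769 in keratinocytes and 8733.5 in macrophages.

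Dermal fibroblasts of the LOF libraries held eGFP in 47.8% (45.7 to 49.8) of cells at E14.5 and 40.2% (37.9 to 42.6) at E13.5, so pericytes lay below fibroblasts at E14.5 with intervals that did not meet and close to them at E13.5. Endothelial cells were at 4.71% in E14.5 LOF and 14.6% in E13.5 LOF. In the second E14.5 control pericytes were at 2.17% (0.055 to 11.53) and fibroblasts at 24.4% (19.4 to 30.0), again with intervals that did not meet. These intervals cover counting error only, and 1 library per stage gives no test of genotype for a share.

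**Figure D4:**
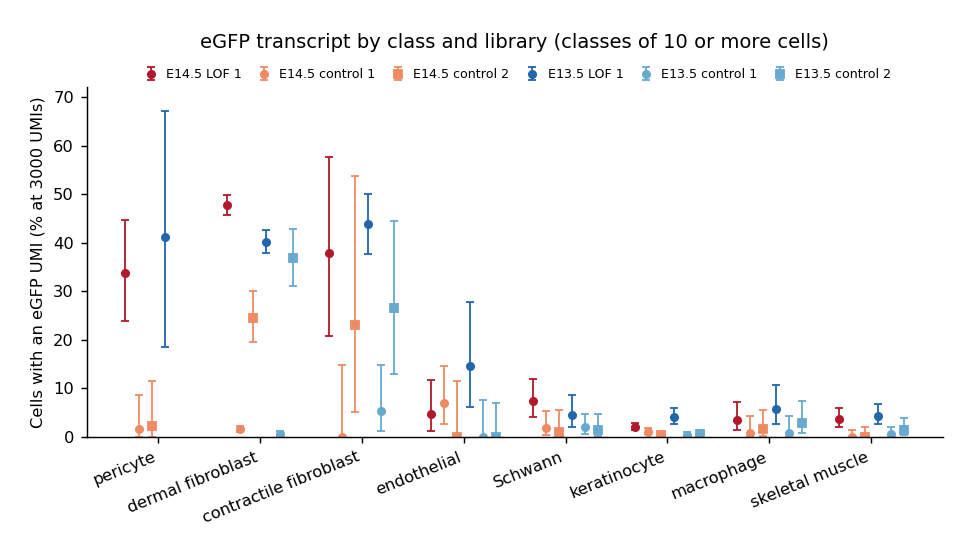
Percent of cells with an eGFP UMI after thinning to 3000 UMIs, by class and library, for classes with at least 10 cells (points with exact binomial 95% intervals). Pericytes reach 33.7% and 41.2% in the E14.5 and E13.5 LOF libraries, and fibroblasts of the second controls reach 24.4% and 36.8% although labelled WT.

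For genotype, LOF was set against control over all 6 libraries, stage being a term of the model, and edgeR called 8 of 6145 genes (0.130%) at an adjusted p under 0.05, 3 higher in LOF (0.0488%) and 5 lower (0.0814%). Of 20 pericyte identity genes tested none was called, with 11 higher in LOF and a median log2 difference of 0.12 against 0.06 over all genes. Contractile genes (0 called of 14) had a median of 0.53 and tone genes (0 of 18) a median of 0.52, with 12 and 16 of them higher in LOF. Ctnnb1 itself was at 177 CPM in LOF and 152 and 166 CPM in control pericytes at E14.5, and at 204 CPM in LOF and 147 and 135 CPM in control pericytes at E13.5. Reads of the 3′ end need not cover the floxed exons, so this does not check the deletion. Of 20 Wnt target genes none was highest in pericytes, and none of the 5 tested was called.

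The genes higher in LOF were the reporter, Tcf15 and Igfbp5. eGFP was at 267 CPM (exact Poisson 95% interval 237 to 301) in LOF and 3.84 and 9.58 CPM in control pericytes at E14.5, and at 529 CPM (447 to 623) in LOF and 0 and 0 CPM in control pericytes at E13.5. Its log2 difference was 5.68 ± 0.50 (SE) in edgeR, adjusted p = 1.45e-26, and it kept its call under every alternative run.

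Tcf15, a basic helix-loop-helix factor of somites that is also found in endothelium, was at 107 CPM (88.3 to 129) in LOF and 25.9 and 9.58 CPM in control pericytes at E14.5, and at 230 CPM (177 to 294) in LOF and 58.7 and 0 CPM in control pericytes at E13.5. LOF was above the controls within each stage, in many cells rather than a few, since 51 of 87 pericytes held a UMI in LOF and 15 of 63 and 6 of 47 in controls at E14.5, and 14 of 17 did in LOF and 2 of 5 and 0 of 1 in controls at E13.5. The log2 difference was 2.46 ± 0.46 (SE), with an edgeR adjusted p of 0.000215 and a DESeq2 adjusted p of 0.158. Endothelial cells, which held Tcf15 too, were at 145 CPM in LOF and 126 and 84.3 CPM in controls at E14.5, and at 164 CPM in LOF and 81.4 and 61.8 CPM in controls at E13.5. Fibroblasts were at 3.78 CPM in LOF and 1.65 and 0.38 CPM in controls at E14.5, and at 23.9 CPM in LOF and 9.28 and 5.05 CPM in controls at E13.5. Whether the pericyte difference exceeded that in the other classes was not tested.

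Igfbp5, a secreted binding protein of insulin-like growth factors, was at 811 CPM (757 to 867) in LOF and 402 and 228 CPM in control pericytes at E14.5, and at 263 CPM (206 to 331) in LOF and 78.3 and 0 CPM in control pericytes at E13.5. Its log2 difference was 1.62 ± 0.38 (SE, edgeR adjusted p = 0.0196). Dermal fibroblasts were also higher in LOF, at 1161 CPM in LOF and 790 and 468 CPM in controls at E14.5 and at 857 CPM in LOF and 464 and 384 CPM in controls at E13.5. The share of pericyte transcripts that came from fibroblasts as free RNA was not tested.

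Among the genes lower in LOF, Thy1, the surface glycoprotein CD90, was at 49.3 CPM (36.8 to 64.7) in LOF and 148 and 284 CPM in control pericytes at E14.5, and at 18.3 CPM (5.93 to 42.6) in LOF and 58.7 and 359 CPM in control pericytes at E13.5. Its log2 difference was -2.36 ± 0.47 (SE, edgeR adjusted p = 0.00103). Fibroblasts had the same order, at 71.0 CPM in LOF and 176 and 240 CPM in controls at E14.5, and at 16.0 CPM in LOF and 44.4 and 58.9 CPM in controls at E13.5. Pfn1, the actin-binding protein profilin 1, was at 238 CPM in LOF and 620 and 1691 CPM in control pericytes at E14.5, and at 624 CPM in LOF and 754 and 2197 CPM in control pericytes at E13.5. Its log2 difference was -1.61 ± 0.37 (SE, edgeR adjusted p = 0.0130), and both second controls stood far above the other libraries. Itm2a, a membrane protein of mesenchyme and muscle, was at 150 CPM in LOF and 290 and 586 CPM in control pericytes at E14.5, and at 197 CPM in LOF and 793 and 404 CPM in control pericytes at E13.5 (log2 difference -1.61 ± 0.38, SE, edgeR adjusted p = 0.0232). The other 2 genes called lower, Krtdap and Dmkn, are epidermal genes that averaged 272 and 233 CPM in keratinocytes. In the first E14.5 control 90.9% of the pericytes' Krtdap UMIs and 84.3% of the Dmkn UMIs came from 1 cell.

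Only the call of eGFP was free of any single library. Without the first E14.5 control edgeR called 1 gene, and the adjusted p was 0.0877 for Tcf15, 0.163 for Thy1, 0.247 for Igfbp5 and Itm2a and 0.485 for Pfn1. Without the E13.5 LOF library 2 genes were called, without the E14.5 LOF library 1, and without the second E13.5 control 4, of which Tcf15 (adjusted p = 0.0236) was one and Igfbp5 (0.477), Thy1 (0.164), Pfn1 (1.0) and Itm2a (0.164) were not. Igfbp5 (0.0555) and Itm2a (1.0) also lost their calls without the first E13.5 control. DESeq2 called 1 gene, eGFP. In the E14.5 libraries alone, with 1 LOF library that is assumed to vary like the controls, edgeR called 6 of 8910 genes (0.0673%), 2 higher in LOF (0.0224%) and 4 lower (0.0449%). Tnmd, the tendon gene tenomodulin, was among them at 67.3 CPM in LOF and 7.69 and 7.98 CPM in control pericytes, and so was the ribosomal protein gene Rpl29 at 65.4 CPM in LOF and 924 and 656 CPM in control pericytes.

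Stage was tested in the 4 controls, where the E13.5 side rests on 5 cells and 1 cell. edgeR called 5 of 4868 genes (0.103%), 4 higher at E14.5 (0.0822%) and 1 lower (0.0205%). DESeq2 called 0, with 71 genes at an unadjusted p under 0.05 against 216 in edgeR. None of the tested genes of pericyte identity (17, of which 15 were higher at E14.5, median log2 difference 0.83), contraction (12, 5 higher, -0.16), Notch signalling (9, 4 higher, -0.04), vascular tone (15, 12 higher, 0.74) or basement membrane (20, 17 higher, 1.15) was called. The median over all genes was 0.15.

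Apold1, an early-response gene of vascular cells, was at 208 and 152 CPM in control pericytes at E14.5 and 9.79 and 0 CPM at E13.5, and the LOF libraries lay with their stages at 87.2 CPM at E14.5 and 7.30 CPM at E13.5. Its log2 difference was 4.54 ± 1.0 (SE, edgeR adjusted p = 0.0315). A UMI was found in 36 of 63 and 28 of 47 control pericytes at E14.5 and in 1 of 5 and 0 of 1 at E13.5, the 1 being a cell that scored as a doublet. Endothelial cells of the controls were at 177 and 99.2 CPM at E14.5 and 51.1 and 100 CPM at E13.5, ranges that met. Its adjusted p was 0.678 without the first E14.5 control, 0.180 without the first and 0.0944 without the second E13.5 control.

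Mt1, which encodes a metallothionein, was at 127.8 and 291 CPM in controls at E14.5 and 9.79 and 44.8 CPM at E13.5, 1 UMI in each E13.5 library (edgeR adjusted p = 0.0471, 0.522 without the first E13.5 control and 0.494 without the second E14.5 control). It was found in 41 of 63 and 33 of 47 control pericytes at E14.5. Krt10, a keratin of the upper epidermis, was at 315 and 95.8 CPM at E14.5 and was listed at 0 in both E13.5 controls (edgeR adjusted p = 0.00880, 0.134 without the first E13.5 control). In the first E14.5 control 86.3% of its UMIs came from 1 cell, and its keratinocyte mean was 208 CPM. Krtdap, another epidermal gene, was also listed at 0 in both E13.5 controls. Sostdc1, a secreted BMP and Wnt antagonist of epithelium, was the only fall, and 7 of its 8 UMIs in the first E13.5 control came from 1 cell that scored as a doublet. With such cells left out edgeR called 0 genes, with 188 at an unadjusted p under 0.05.

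With the LOF libraries added and genotype as a covariate, the stage fit called 72 of 6145 genes (1.17%), 60 higher at E14.5 (0.976%) and 12 lower (0.195%), of which 3 were also called in the 4 controls. Abcc9, a gene of the rule, is 1 of the 72 and no result. The 3 libraries of one stage did not overlap those of the other in 48 of the other 71 genes called (67.6%) and in 1007 of all 6145 tested (16.4%). At E13.5 this fit rests on 17 LOF cells and 5 and 1 control cells. Apold1 stayed among the calls at 3.91, and the immediate-early genes Jun (2.14), Fos (1.62) and Fosb (4.36), whose products form AP-1, were called with it. Jun was at 434 CPM in LOF and 608 and 251 CPM in control pericytes at E14.5, and at 110 CPM in LOF and 97.9 and 44.8 CPM in control pericytes at E13.5. These genes also respond to tissue dissociation, and its part in the result was not tested. Sdpr, which encodes the caveolar protein cavin-2, was at 83.5 CPM in LOF and 123 and 113 CPM in control pericytes at E14.5, and at 0 CPM in LOF and 9.79 and 0 CPM in control pericytes at E13.5. Adra2a (3.93) and the intermediate filament gene Nes (1.68) were other rises without overlap. Igfbp5 (1.94) and Col4a1 (1.25) were called although the second E14.5 control lay below the E13.5 LOF library in both.

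Among the 12 genes lower at E14.5 in the same fit, Mdk, the growth factor midkine, was at 221 CPM in LOF and 233 and 241 CPM in control pericytes at E14.5, and at 672 CPM in LOF and 577 and 583 CPM in control pericytes at E13.5. Its log2 difference was -1.36 (edgeR adjusted p = 0.0224), and no library of one stage reached those of the other. Sfrp2, a secreted Wnt antagonist, was at 27.5 CPM in LOF and 17.3 and 6.39 CPM in control pericytes at E14.5, and at 65.7 CPM in LOF and 157 and 0 CPM in control pericytes at E13.5 (log2 difference -2.37, edgeR adjusted p = 0.00846). The 0 of the single-cell library overlapped the E14.5 values. Notch2 was lower as well (-1.82, edgeR adjusted p = 0.0472).

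Stage effects in pericytes were compared directly with those in dermal fibroblasts of the same 4 controls by an interaction test. edgeR called 30 of 10439 genes (0.287%), 25 with a more positive difference in pericytes (0.239%) and 5 with a more negative one (0.0479%). Myl9 was at 479 and 840 CPM in pericytes at E14.5 and 1204 and 224 CPM at E13.5, while fibroblasts were at 37.9 and 54.0 CPM at E14.5 and 264 and 254 CPM at E13.5. The difference of the 2 stage effects was 2.19 on the log2 scale (edgeR adjusted p = 1.43e-11). Cnn2, a calponin, shared the pattern, at 420 and 572 CPM in pericytes at E14.5 and 715 and 493 CPM at E13.5, and at 155 and 172 CPM in fibroblasts at E14.5 and 448 and 578 CPM at E13.5. In both genes the fibroblast stages were apart and the pericyte stages overlapped. Serpine2, a protease inhibitor, was at 413 and 444 CPM in pericytes at E14.5 and 313 and 179 CPM at E13.5, and at 67.3 and 52.1 CPM in fibroblasts at E14.5 and 94.9 and 86.5 CPM at E13.5.

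Against endothelial cells the same test called 6 of 7912 genes (0.0758%), all with a more positive difference in pericytes. Igfbp5 was at 402 and 228 CPM in pericytes at E14.5 and 78.3 and 0 CPM at E13.5, whereas endothelial cells were at 32 and 32.3 CPM at E14.5 and 115 and 47.9 CPM at E13.5, a difference of effects of 4.22 on the log2 scale. Serpine2 was in the list too, at 2.89. With the first E14.5 control left out edgeR called 0 genes against endothelial cells (90 at an unadjusted p under 0.05) and 0 against fibroblasts (209), and with the second left out 0 against endothelial cells (65). The fibroblast count was 3 without the second E14.5 control, 105 without the first E13.5 control and 123 without the second. The endothelial count was 47 without the first E13.5 control and 2 without the second.

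Cell division genes were common in the members, and in other classes too. At 3000 UMIs per cell, the share with at least 2 UMIs summed over Mki67, Top2a, Cdk1, Ccnb1, Birc5 and Ccna2 was 59.3% in LOF and 60.3% and 52.2% in control pericytes at E14.5, and 47.1% in LOF and 80.0% and 0% in control pericytes at E13.5, the last 2 from 5 cells and 1 cell. Keratinocytes were at 61.7% in LOF and 62.7% and 55.4% in controls at E14.5, and at 49.4% in LOF and 63.2% and 52.4% in controls at E13.5. Fibroblasts were at 37.5% in LOF and 51.4% and 47.4% in controls at E14.5, and at 27.5% in LOF and 42.3% and 53.9% in controls at E13.5. Pericytes were above fibroblasts in 5 of 6 libraries, by a mean of 6.47 percentage points, and above endothelial cells in 5 of 6, by 8.18. An exact two-sided paired permutation test over the 6 libraries gave p = 0.625 and p = 0.531, both 0.625 after Benjamini-Hochberg adjustment over the 2 comparisons, where 0.03125 is the smallest it can give. The single cell of the second E13.5 control, at 0%, was the library below in both. Mki67 was also called higher at E14.5 in the stage fit of all 6 libraries (log2 difference 2.72). It was at 431 CPM in LOF and 480 and 109 CPM in control pericytes at E14.5. At E13.5 it was at 25.6 CPM in LOF and 108 and 0 CPM in control pericytes. Of 29 listed proliferation genes tested in that fit, 1 was called.

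Because Rgs5 was lower in the E13.5 members, a gate without it was also read, with 5 or more UMIs of Pdgfrb, 2 or more of Notch3 and Cspg4 together and the same exclusions. It was chosen after the data had been seen and its genes are given as values only. It held 155 cells, 49 in LOF and 54 and 19 in control libraries at E14.5 and 14 in LOF and 12 and 7 in control libraries at E13.5, and 68 of them also met the rule. As shares these were 0.549% in LOF and 0.862% and 0.325% in controls at E14.5, and 0.211% in LOF and 0.172% and 0.116% in controls at E13.5. Cells of the gate with at most 2 Rgs5 UMIs, none of them members, made up 0.291% in LOF and 0.351% and 0.154% in controls at E14.5. They made up 0.181% in LOF and 0.158% and 0.116% in controls at E13.5, so without members the stages overlapped. Over all cells of the gate, members included, the E14.5 shares were all above the E13.5 shares, by a smaller factor than under the rule. Between LOF and controls at E14.5 alone, edgeR called 3 of 7962 genes in these cells (0.0377%), 2 higher in LOF (0.0251%) and 1 lower (0.0126%), and eGFP was among the higher ones.

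Through this gate Rgs5 was at 336 CPM in LOF and 460 and 308 CPM in control cells at E14.5, and at 82.0 CPM in LOF and 27.2 and 7.26 CPM in control cells at E13.5. Cells with no Rgs5 UMI numbered 22 of 49 in LOF and 18 of 54 and 8 of 19 in controls at E14.5, and 9 of 14 in LOF and 9 of 12 and 6 of 7 in controls at E13.5. Igfbp7, a secreted protein of vessel walls, was at 206 CPM in LOF and 211 and 249 CPM in control cells at E14.5, and at 39.7 CPM in LOF and 30.6 and 29.0 CPM in control cells at E13.5. Des, the intermediate filament desmin, Apold1 and Ndufa4l2 were likewise higher in every E14.5 library than in every E13.5 library. In the gate's cells with at most 2 Rgs5 UMIs, Des was at 36.3 CPM in LOF and 10.2 and 5.93 CPM in controls at E14.5. It was at 11.7 CPM in LOF and 15.2 and 7.26 CPM in controls at E13.5, so its stages overlapped. Igfbp7, Apold1 and Ndufa4l2 stayed higher at E14.5 in those cells.

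Other genes ran against that order or overlapped. Acta2 was at 1146 CPM in LOF and 675 and 1064 CPM in control cells at E14.5, and at 2294 CPM in LOF and 1529 and 1858 CPM in control cells at E13.5. Sfrp2 was at 50 CPM in LOF and 18.6 and 5.86 CPM in control cells at E14.5, and at 177 CPM in LOF and 177 and 152 CPM in control cells at E13.5. Hmga2, a chromatin protein of embryonic mesenchyme, was at 52.8 CPM in LOF and 42.5 and 29.3 CPM in control cells at E14.5, and at 132 CPM in LOF and 150 and 203 CPM in control cells at E13.5. All 3 were lower in every E14.5 library than in every E13.5 library. The genes of this gate were picked after their values were seen. The share of all genes without overlap between the stages was not counted in it. Among the members it was 16.4% of 6145 genes tested. Heyl stayed between 123 and 177 CPM, and its stages overlapped.

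**Figure D5:**
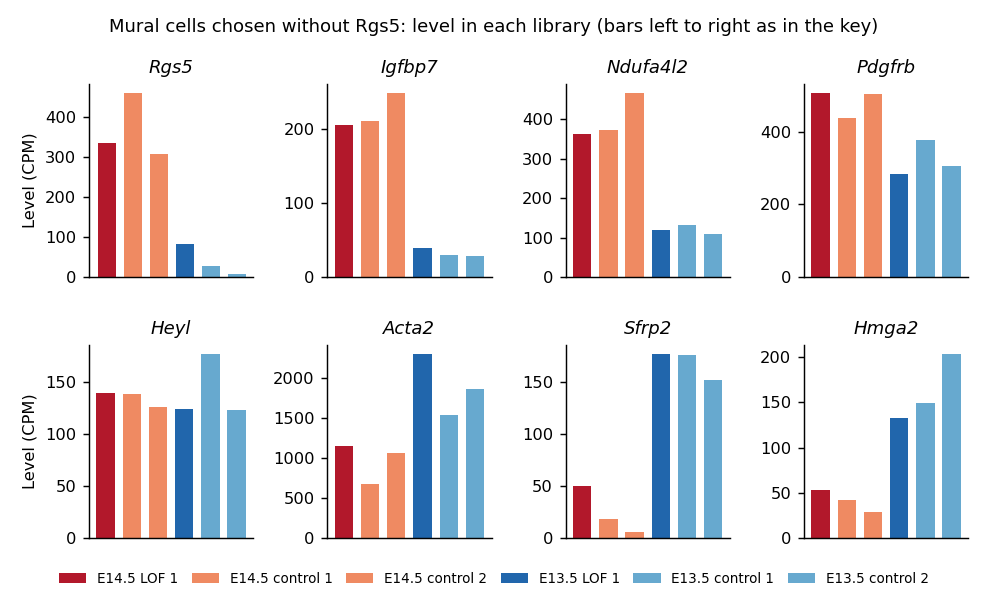
CPM of 8 genes in cells of the gate without Rgs5 (Pdgfrb, Notch3 and Cspg4), 1 bar per library. Rgs5, Igfbp7 and Ndufa4l2 are higher in all 3 E14.5 libraries, Acta2, Sfrp2 and Hmga2 are higher in all 3 E13.5 libraries, and Heyl overlaps between stages.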

How the data were processed

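Per the labels' protocols, skin was dissociated with trypsin, sorted with DAPI and run on Chromium 3′ v2 chemistry. The deposited files hold UMI counts per gene and barcode, whole numbers over 28000 genes including eGFP and tdTomato. Per the submitters' processing notes the tools were Cell Ranger and Seurat with mm10 (GRCm38), and versions are not given in the sources used here. No deposited barcode held fewer than 2568 UMIs, and 40653 of 41594 passed the 500 gene and 10% mitochondrial limits, at a median of 8192 to 11323 UMIs.

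Groups came from the labels, and replicate numbers of controls are names only. A library is the unit of replication. UMI counts of members were summed per library and tested with edgeR 4.0.16 (quasi-likelihood, robust, TMM factors, filterByExpr) in R 4.3.3 with limma 3.58.1, with Benjamini-Hochberg adjustment over all genes tested and a threshold of 0.05. The interaction fits had a library term. DESeq2 1.42.0 was an alternative. Scripts were tested on simulated data. CPM are UMIs scaled to a total of 1e+06 over the summed cells. The 3′ counts do not scale with gene length, and levels are compared within a gene. Other classes were gated on marker UMIs (347 endothelial cells, 7270 dermal fibroblasts, 415 contractile fibroblasts, 5997 keratinocytes, 1947 skeletal muscle cells, 888 macrophages and 1051 Schwann cells), and genes that set a gate describe it. Shares at equal depth used cells thinned to 3000 UMIs, leaving out shallower cells (1 member in the E14.5 LOF and 1 in the second E14.5 control library). In each library simulated pairs gave doublet scores, the top 0.8% per 1000 cells were called, and called cells were kept in the main results. Binomial and Poisson intervals are exact at 95% and, like the floor of 3 counts for a 0, cover counting error only. P-values measure the spread between these libraries. The rest used scipy 1.17.1, numpy 2.4.6, matplotlib 3.10.9 and pandas 2.3.3 in Python 3.11.15.

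Named genes were, per comparison, up to 10 rises and 10 falls past the test with logCPM of at least 5, libraries that did not overlap within the contrast and a pericyte CPM of at least 1 part in 5 of the highest class, filled to 5 per direction by smallest p, and the 15 genes highest over the next class. Other genes come from lists or were picked after their values were seen: the genes of the 6-library and E14.5 fits, of the interactions, of the Acta2 division and of the gate without Rgs5. Members and lists were chosen with earlier results of these data known. Hes4, Gucy1a1 and Gucy1b1 had no row under that name, and the files use Gucy1a3 and Gucy1b3. Alternatives were the tool, the scaling, the low-count filter, each library left out, stricter, looser and thinned rules, doublets left out, a replicate block, a term for 3 pairs of libraries inferred in earlier work on these data (library pairs) and, added after the data were seen, the gate without Rgs5 and the E14.5 libraries alone.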

Additional observations from a re-analysis of the deposited data

Results flagged for a closer look

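These results are set apart because the stage effect, E14.5 over E13.5 in the controls, differed between pericytes and another class by a test of the difference itself. It did so for 30 genes against dermal fibroblasts and 6 against endothelial cells, at an edgeR adjusted p under 0.05. Values are the effect in pericytes minus that in the other class on the log2 scale, and the pericyte side rests on 6 cells at E13.5.

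Among contractile genes the difference from fibroblasts was 2.19 for Myl9, 1.38 for Cnn2, 3.52 for Des, 3.85 for Actg2 and -2.37 for Ppp1r14a. Actg2 was at 77.8 and 41.5 CPM in pericytes at E14.5 and 352 and 0 CPM at E13.5, so its pericyte stages overlapped. Fibroblasts held little Actg2, at 0 and 0.383 CPM at E14.5 and 4.53 and 0.673 CPM at E13.5. Des was at 145 and 123 CPM in pericytes at E14.5 and 39.2 and 0 CPM at E13.5, and at 3.30 and 2.30 CPM in fibroblasts at E14.5 and 7.14 and 6.73 CPM at E13.5. Among transcription factors it was 3.82 for Nr2f1, a nuclear receptor, 2.63 for Tbx2, a T-box repressor, and 1.96 for Jun. Nr2f1 was at 154 and 163 CPM in pericytes at E14.5 and 39.2 and 44.8 CPM at E13.5, and at 2.98 and 1.15 CPM in fibroblasts at E14.5 and 8.67 and 7.41 CPM at E13.5. The stages were apart in both classes, in opposite order.

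For receptors it was 4.86 for Adra2a and -2.45 for Agtr1a. Agtr1a was at 59.6 and 60.7 CPM in pericytes at E14.5 and 108 and 179 CPM at E13.5, and at 14.8 and 14.9 CPM in fibroblasts at E14.5 and 5.52 and 2.36 CPM at E13.5. For secreted and other genes it was 2.02 for Igfbp5, 1.40 for Serpine2, 1.04 for the chaperone gene Hspa8 and -4.92 for Dpt, the matrix gene dermatopontin. Dpt was at 12.5 and 1.6 CPM in pericytes at E14.5 and 58.7 and 0 CPM at E13.5, against 124 and 109 CPM in fibroblasts at E14.5 and 21.6 and 12.5 CPM at E13.5. Against endothelial cells the difference was 4.22 for Igfbp5 and 2.89 for Serpine2.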

How the results depend on the processing

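The 6 E13.5 control members limit every stage result. The stage count of 5 was 0 with DESeq2 (71 at an unadjusted p under 0.05), 0 in edgeR with DESeq2-style size factors (172), 0 with doublets left out (188), 3 with the stricter rule, 21 with the looser rule, 2 with the thinned rule, 3 with the gate without Rgs5 (added after the data were seen), 72 with all 6 libraries and 56 with library pairs. It was 3 without the first E14.5 control to 17 without the second. The genotype count of 8 was 1 with DESeq2, 2 with the other size factors, 5 with no low-count filter, 1 with the thinned rule, 21 with library pairs, and 2 and 3 with the gate without Rgs5 over all and over E14.5 libraries. It was 1 without the first E14.5 control to 11 without the first E13.5 control. Leaving out a control gave 0 to 123 genes against fibroblasts and 0 to 47 against endothelial cells. The causes were not tested.

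With a replicate block, in which the second controls share only a word in their titles and the numbers pair no samples, the stage count was 14 and the genotype count 7.

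The E14.5 LOF share was 0.751% with the stricter rule. With the thinned rule shares were 0.578% in LOF and 0.671% in the first control at E14.5, and 0.142% in LOF and 0.0154% and 0% in controls at E13.5. eGFP without thinning was in 50.6% of E14.5 LOF pericytes. The cycling difference was 28.2 points from fibroblasts and 20.2 from endothelial cells without thinning (exact permutation, adjusted p = 0.03125, the smallest possible). Depth was not equal there, and members had a higher median depth than fibroblasts in every library (11594 against 8327 UMIs in E14.5 LOF). The single cell of the second E13.5 control moved from 0% with thinning to 100% without it. At 4 or more UMIs after thinning the difference from fibroblasts was -5.10. Leaving out each library gave 0.235 to 18.6 points from fibroblasts and -0.231 (without the first E13.5 control) to 19.2 points from endothelial cells.

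Of the single-gene values under alternatives, 314 kept direction and side of the threshold, 214 lost the call, 11 gained one and 8 changed sign. Those 8 were the stage values of Fscn1 (1.17, thinned rule) and Otub1 (6.71, thinned rule, 0.65, library pairs, and 0.16 without the first E13.5 control, the lowest of the left-out libraries being -2.16), the genotype values of Itm2a (0.0023, gate without Rgs5) and Krtdap (3.74 without E14.5 LOF, lowest -3.25), and the interaction values of Dpt (5.11, lowest -7.11) and Ppp1r14a (9.47, lowest -2.82) without the first E13.5 control.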

Other observations

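tdTomato, the unrecombined form of the reporter, was found at 3000 UMIs per cell in 3.49% of LOF and 12.7% and 2.17% of control pericytes at E14.5, and in none of the E13.5 pericytes. Keratinocytes held it in 13.4% of LOF and 9.83% and 44.8% of control cells at E14.5, and in 86.6% of LOF and 91.6% and 84.2% of control cells at E13.5. Both forms of the reporter were detected in libraries labelled WT.

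Several named genes did not pass the test and were taken by smallest p to fill the lists. Only genes whose libraries did not overlap between the groups, for genotype within each stage, could be taken. That they kept the groups apart was thus a condition of the choice and is no result. Fscn1, the actin bundler fascin, was at 83.5 CPM in LOF and 90.3 and 115 CPM in control pericytes at E14.5, and at 175 CPM in LOF and 284 and 314 CPM in control pericytes at E13.5 (edgeR, log2 difference -1.37, adjusted p = 0.814). Epha3, Sc5d, Cops7a and Otub1 were also lower at E14.5, and Jun (adjusted p = 0.0817) and Igfbp5 (0.111) higher. Errfi1 (0.759) and Btbd3 (1.0) were higher in LOF, and Cdca3 (0.481) and Cryab (1.0) lower. None passed the test.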
